A study of Mus musculus with 24 samples.

Results

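A set of 7 genes of coenzyme A (CoA) synthesis was followed across liver and inguinal white adipose tissue (iWAT, a fat depot under the skin) of mice with a knockout of Mrs2 (KO) or without it (WT), fed chow or a Western diet (WD). The 7 genes were taken by symbol from the 54532 genes of the deposited expression table, and each had 1 entry there: Pank1, Pank2, Pank3, Pank4, Ppcs, Ppcdc and Coasy. The genes were selected on membership of 1 pathway by name, without a threshold. That pathway, headed by Pank1, was itself proposed with expression values of these libraries in view, and since it is not stated which values counted, all levels and fold changes of Pank1 are treated as used. Pank1 is therefore described without a test, and the tests of the other 6 are not independent of earlier knowledge of these data.

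CoA is the carrier of acyl groups in fatty acid oxidation, fatty acid synthesis and the citric acid cycle. It is built from pantothenate (vitamin B5). The pantothenate kinases Pank1, Pank2 and Pank3 carry out the first and controlled step, which acyl-CoAs inhibit, and Pank4 is a related protein that lacks this kinase activity and acts as a phosphatase. Ppcs then joins cysteine to the phosphorylated product, Ppcdc removes its carboxyl group, and the bifunctional Coasy completes the molecule. In liver, Pank1 is known as a target of PPARA and as a source of the CoA used in fasting.

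All mice were 13 weeks old when the diets began and received them for 52 weeks. Each of the 8 combinations of genotype, diet and tissue held 3 libraries, 24 in all, from 50 mg of powdered whole liver or 100 mg of powdered whole iWAT whose lymph nodes had been removed. The sources used here give no strain, sex or knockout allele. They do not say whether the replicates were separate animals, so that p-values measure only the spread between these samples, which may be technical. Levels are given as FPKM, fragments scaled by gene length and library size, as the authors deposited them. Differences are given as log2 fold changes of FPKM + 1 with their standard errors (SE, 3 libraries per group), and the added 1 understates the change of genes near 0. A gene was called where its adjusted p, from limma with Benjamini-Hochberg adjustment over all genes tested, was under 0.05. Because the tissues are mixtures, fewer cells of a type and less RNA per cell cannot be told apart.

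Reads recovered from the FPKM numbered 14.7 to 19.5 M in liver libraries and 15.4 to 20.4 M in iWAT libraries. The deposited scaling set the size of a library at 0.980 to 1.07 times its reads in WT WD livers, 0.769 to 0.854 times in the other 9 livers, and 1.24 to 1.60 times in iWAT. Mrs2 was lower in all KO than in all WT libraries in iWAT on both diets and in liver on chow. In liver on WD the livers labelled WT (4.10 to 5.11 FPKM) overlapped those labelled KO (4.10 to 5.21 FPKM), so directions there are those of the labels. Hepatocyte markers summed to 25764 FPKM or more in every liver and adipocyte markers to 8125 FPKM or more in every iWAT library. Acinar genes of the pancreas stood out in KO chow liver replicate 1 and WT WD liver replicate 2 (1643 and 1340 FPKM summed over 7 genes, against 24.5 or less in the other livers). Muscle genes stood out in WT WD and KO WD iWAT replicate 1 (3319 and 992 FPKM summed over 7 genes), and at lower levels in WT chow liver replicate 3 and KO WD liver replicate 2 (139 and 64.9 FPKM). These 6 libraries, which an earlier analysis of these data picked, are called below the libraries with RNA of another tissue. They do not include WT WD iWAT replicates 2 and 3 and WT chow iWAT replicate 2, whose muscle genes summed to 242, 121 and 106 FPKM.

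On mm10, per the deposited table, Pank1 (ENSMUSG00000033610) lies on chromosome 19 from 34810894 to 34879455 on the minus strand. Pank2 (ENSMUSG00000037514) lies on chromosome 2 from 131262495 to 131299188, Pank3 (ENSMUSG00000018846) on chromosome 11 from 35769484 to 35791285, and Pank4 (ENSMUSG00000029056) on chromosome 4 from 154964123 to 154980938, all on the plus strand. Ppcs (ENSMUSG00000028636) lies on chromosome 4 from 119418530 to 119422420 and Ppcdc (ENSMUSG00000063849) on chromosome 9 from 57385095 to 57440124, both on the minus strand, and Coasy (ENSMUSG00000001755) on chromosome 11 from 101082565 to 101086619 on the plus strand. The deposited length of Pank1 was 3692 bases, against 8267 exonic bases in GENCODE vM21, so its FPKM rests on a shorter gene model. Of the exonic bases of Pank2, 1125 (22.9%) are shared with Rnf24 on the opposite strand, and reads of the 2 genes cannot be told apart there without strand.

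Each of the catalytic kinase genes carries a microRNA gene in an intron: Mir107 in Pank1, Mir103-2 in Pank2 and Mir103-1 in Pank3. The mature 3p sequences from RefSeq (GRCm38.p6) are shown because they share 1 seed, in capitals (bases 2 to 8).
miR-107-3p (Pank1): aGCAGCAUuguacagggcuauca
miR-103-3p (Pank2 and Pank3): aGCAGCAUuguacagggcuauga
These libraries sampled polyadenylated RNA and do not measure mature microRNAs. The 3 hairpin genes stood at 0 to 4.22 FPKM.

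Promoters of 6 of the 7 members were matched in RefSeq (GRCm38.p6), and the table did not hold Coasy. Windows of 300 bases, from 250 bases before to 50 after a transcript's start, are shown for 3 of the genes whose levels moved most below. In capitals, on either strand, are the TATA box TATAAA, the CCAAT box and the nuclear receptor half-site AGGTCA. No 2 of these matches overlap.
Pank1, first start, chr19:34879406-34879705, minus strand: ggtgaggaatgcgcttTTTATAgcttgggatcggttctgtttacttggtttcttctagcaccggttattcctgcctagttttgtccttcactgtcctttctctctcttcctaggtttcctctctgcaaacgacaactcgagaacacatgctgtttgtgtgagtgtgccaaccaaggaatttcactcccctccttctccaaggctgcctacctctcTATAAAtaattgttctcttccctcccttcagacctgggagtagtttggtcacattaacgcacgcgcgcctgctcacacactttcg
Pank1, second start, chr19:34877868-34878167, minus strand: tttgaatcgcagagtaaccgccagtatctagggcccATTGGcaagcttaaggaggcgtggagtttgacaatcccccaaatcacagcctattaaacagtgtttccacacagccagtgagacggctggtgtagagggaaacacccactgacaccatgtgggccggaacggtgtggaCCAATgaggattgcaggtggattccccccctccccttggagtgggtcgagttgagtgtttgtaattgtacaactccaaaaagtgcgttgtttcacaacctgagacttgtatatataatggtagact
Pank3, chr11:35769245-35769544, plus strand: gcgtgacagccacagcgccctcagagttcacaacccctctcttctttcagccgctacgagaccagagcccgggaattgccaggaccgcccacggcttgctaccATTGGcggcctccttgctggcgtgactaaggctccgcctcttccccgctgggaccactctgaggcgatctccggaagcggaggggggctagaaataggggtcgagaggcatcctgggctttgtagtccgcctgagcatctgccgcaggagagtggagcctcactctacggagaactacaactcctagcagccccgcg
Ppcs, chr4:119422371-119422670, minus strand: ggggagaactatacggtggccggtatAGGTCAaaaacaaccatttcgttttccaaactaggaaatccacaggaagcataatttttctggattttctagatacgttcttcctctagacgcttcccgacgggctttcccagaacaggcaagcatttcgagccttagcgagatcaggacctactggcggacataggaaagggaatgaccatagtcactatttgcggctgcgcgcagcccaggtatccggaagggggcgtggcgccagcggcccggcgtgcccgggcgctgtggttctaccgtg
The Pank1 starts lie 1538 bases apart. The first has TATAAA 35 bases before the start, and 13.6% of the 32817 promoters in the table hold TATAAA on either strand. The second has no TATAAA and has CCAAT 76 bases before the start, a motif in 37.4% of promoters. The Pank3 window holds CCAAT on the opposite strand, and also GGGCGG, which 35.6% of promoters hold. The Ppcs window holds AGGTCA (16.3% of promoters). The DR1 element, a direct repeat of this half-site with 1 free base between, to which PPARA and RXR can bind, was in 13 promoters (0.0396%) and in none of the 9 windows of the members. A match is a description of the letters, and a gene-level value does not show which Pank1 start was used.

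Which pantothenate kinase predominated depended on the tissue. Pank1 stood at 35.1 to 104 FPKM in liver and at 0.646 to 13.3 FPKM in iWAT, where its lowest library held 52 reads. Pank3 had the opposite order, at 9.82 to 25.6 FPKM in liver and 55.4 to 148 FPKM in iWAT. Neither gene's range overlapped between the tissues. Pank2 (4.84 to 7.22 and 5.88 to 7.95 FPKM), Pank4 (4.30 to 6.36 and 4.85 to 7.85 FPKM) and Ppcdc (3.08 to 4.08 and 2.43 to 4.29 FPKM) were low in liver and iWAT alike. Coasy held 42.5 to 76.1 FPKM in liver and 11.4 to 44.4 FPKM in iWAT, and Ppcs 12.5 to 20.4 and 6.40 to 15.1 FPKM. Levels between tissues rest on the deposited scaling across all libraries.

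The share of each kinase in the summed FPKM of Pank1, Pank2 and Pank3 does not depend on library scaling. On chow, Pank1 made up 74.0% ± 0.780 (SD, n = 3) in WT and 76.4% ± 1.85 in KO livers. On WD it made up 72.8% ± 2.45 in WT and 81.5% ± 1.75 in KO livers. Each KO WD liver (79.6%, 81.9% and 83.0%) lay above each of the other 9 livers, which ran from 70.2% to 77.5%. In iWAT Pank3 made up 75.9% to 92.8%. There Pank1 held 1.76% ± 0.378 in WT and 4.08% ± 0.993 in KO on chow, against 1.62% ± 0.521 in WT and 10.8% ± 5.41 in KO on WD. Every KO iWAT library (2.98% or more) lay above every WT library (2.01% or less). The KO WD libraries were far apart, at 15.8%, 11.6% and 5.09%. Summed FPKM of the 3 kinases averaged 101, 131, 58.2 and 108 in liver and 97.3, 128, 69.3 and 83.6 in iWAT, for WT and KO on chow and then WT and KO on WD.

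**Figure D1:**
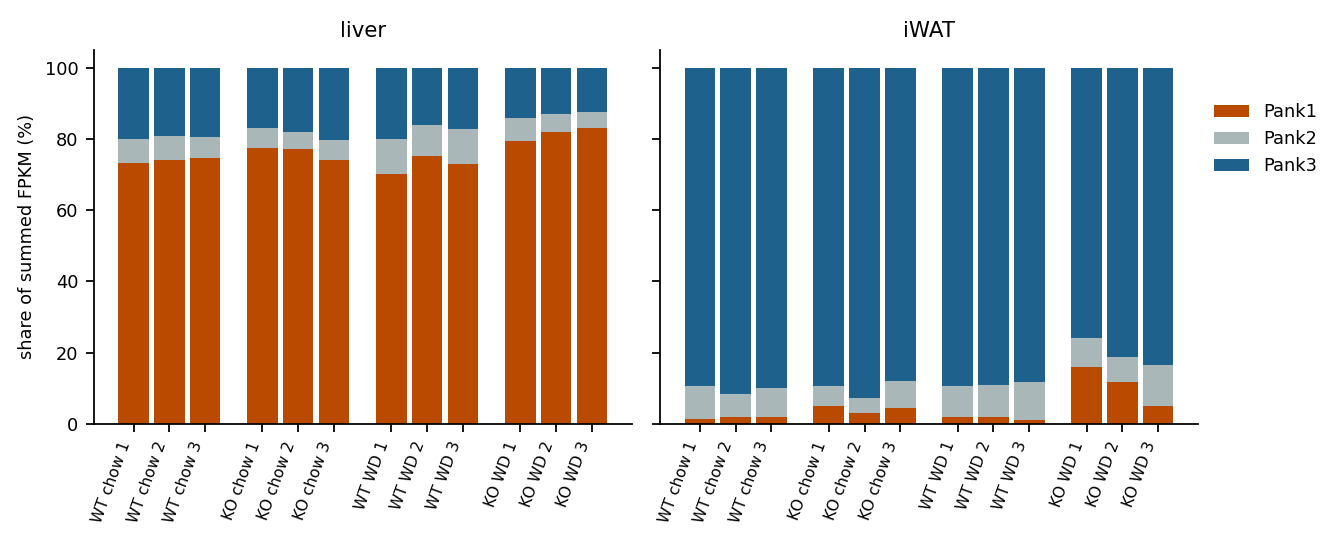
Share of Pank1, Pank2 and Pank3 in their summed FPKM (%), 1 stacked bar per library, liver at left and iWAT at right. Pank1 fills 70.2% to 83.0% of the bar in liver and Pank3 75.9% to 92.8% in iWAT, with the Pank1 share in iWAT highest in KO WD replicates 1 and 2.

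In liver, Pank1 was lowest in WT mice on WD. On chow the WT livers held 67.2, 71.5 and 86.0 FPKM and the KO livers 102, 104 and 93.9. On WD it stood at 35.1, 50.6 and 41.9 FPKM in the livers labelled WT, and at 74.5, 90.8 and 98.7 in those labelled KO. By group mean the order was KO chow (100.1 ± 5.41, SD, n = 3), KO WD (88.0 ± 12.3), WT chow (74.9 ± 9.86) and WT WD (42.5 ± 7.72). Neighbours in that order overlapped except WT WD, whose 3 livers lay below all other 9. KO livers lay above WT livers without overlap on each diet, with a log2 fold change of 0.42 ± 0.15 on chow and 1.04 ± 0.15 on WD. WD against chow was -0.81 ± 0.15 in WT, without overlap, and -0.19 ± 0.15 in KO, with overlap. The difference between these diet effects was 0.62 ± 0.22.

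Part of the Pank1 difference on WD moved with the scaling. With each liver scaled by its plain total of reads, the value on WD was 0.72 ± 0.14, that of WD in WT -0.47 ± 0.14, and the difference of the diet effects 0.34 ± 0.20. That scaling shifted the median of all genes by -0.24 in KO against WT on WD and by 0.26 in WD against chow in WT. With quantile normalization Pank1 stood at 0.79 and -0.58 in the same comparisons. Without the libraries with RNA of another tissue it stood at 1.14 and -0.84. The sign was the same in all of these.

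Other cell types moved alongside. In KO against WT on WD, 5 of 8 hepatocyte markers were called higher, 8 of 10 macrophage markers lower and 7 of 8 markers of stellate cells and fibroblasts lower. Of the bile duct and lymphocyte markers, 4 of 5 and 4 of 8 were called. Over all genes tested 21.0% were called there. On WD the bile duct markers summed to 147 to 251 FPKM in WT and 17.9 to 31.8 in KO. The lymphocyte markers summed to 7.34 to 11.8 FPKM in WT and 1.51 to 3.63 in KO. Of the 5 hepatocyte calls, 2 held on the plain total of reads, 1 without the libraries with RNA of another tissue and 0 with quantile normalization. Hepatocyte markers summed to 52855 to 82240 FPKM in WT and 55744 to 66783 in KO on chow, and to 25764 to 32862 in WT and 35297 to 42771 in KO on WD. Macrophage markers summed to 201 to 466, 210 to 244, 678 to 1556 and 314 to 383 FPKM in the same order. The summed hepatocyte markers in KO WD lay below both chow groups without overlap. Pank1 in KO WD overlapped both chow groups. The part of these cell types in the Pank1 values was not tested.

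In iWAT, Pank1 was higher in every KO than in every WT library. On chow WT iWAT had Pank1 at 1.14, 2.25 and 1.82 FPKM, and KO iWAT at 6.26, 4.73 and 4.30. On WD it stood at 1.39, 1.39 and 0.646 FPKM in WT and at 13.3, 11.4 and 3.52 in KO. The order of the means was KO WD (9.39 ± 5.17, SD, n = 3), KO chow (5.10 ± 1.03), WT chow (1.74 ± 0.562) and WT WD (1.14 ± 0.429), and within each genotype the diets overlapped. KO WD replicate 3 lay below all 3 KO chow libraries. KO over WT gave a log2 fold change of 1.16 ± 0.38 on chow and 2.14 ± 0.38 on WD, and without KO WD replicate 3 the latter was 2.66 ± 0.23. At these low levels the pseudocount mattered: with 0.1 in place of 1 the value on WD was 2.80, and on recovered reads 3.07 by edgeR. WD against chow was -0.35 ± 0.38 in WT and 0.62 ± 0.38 in KO, the latter 1.14 without KO WD replicate 3.

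**Figure D2:**
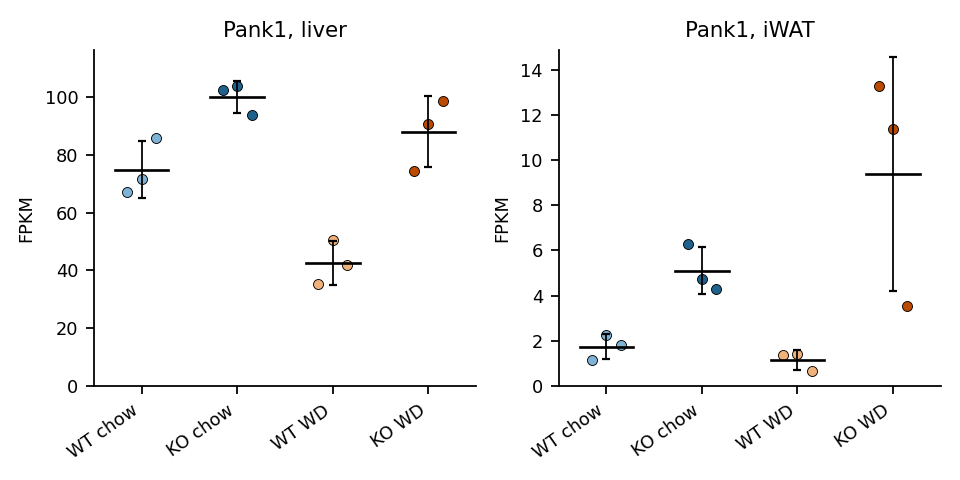
Pank1 level (FPKM, linear axes from 0, on different scales) in 3 libraries per group in liver and iWAT. Points are libraries, horizontal lines means and bars SD. The WT WD livers (35.1 to 50.6 FPKM) lie below all other livers, and every KO iWAT library (3.52 FPKM or more) lies above every WT one (2.25 or less).

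Brown adipocyte markers (Ucp1, Cidea, Cox7a1, Elovl3 and Dio2) moved in the same iWAT libraries. On chow their summed FPKM was 30.6 to 51.1 in WT and 244 to 457 in KO. On WD it was 7.98 to 69.9 in WT, and 1295, 1311 and 280.4 in KO replicates 1, 2 and 3. All 5 were called higher in KO on WD, where 4.25% of all genes tested were called. None of the 5 was called without WT WD replicate 3, KO WD replicate 1 or KO WD replicate 2. Ucp1, the uncoupling protein of heat production, stood at 651, 699 and 129 FPKM in KO WD. Mitochondrially encoded genes took 11.6%, 10.3% and 5.27% of reads there, against 5.85% to 6.56% in KO chow and 2.49% to 4.63% in WT libraries. The KO WD library lowest in these markers was also lowest in Pank1, Ppcs and Coasy. Hepatocyte markers also differed in iWAT on WD (26.5 to 83.9 FPKM summed in WT and 219 to 301 in KO), and of the 5 tested there Cyp2e1 and Serpina1a were called higher. On chow they were highest, at 759 to 1042 FPKM in WT and 629 to 810 in KO. The part of brown or beige adipocytes and of cells with hepatocyte genes in these results was not tested.

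**Figure D3:**
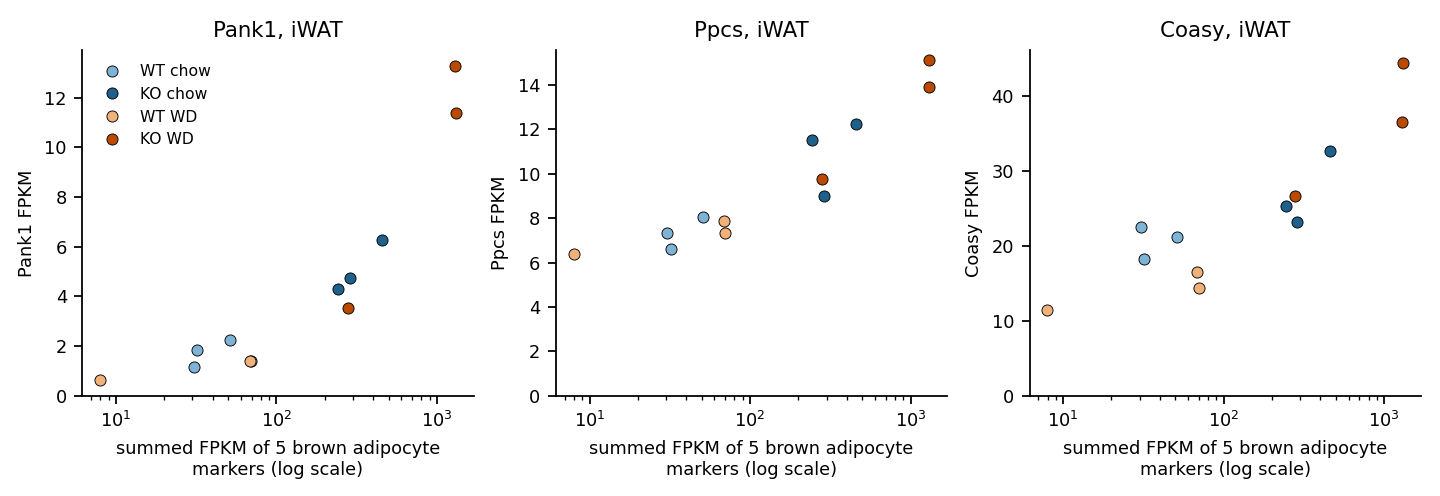
Pank1, Ppcs and Coasy (FPKM) against the summed FPKM of 5 brown adipocyte markers (log axis), 1 point per iWAT library. KO WD replicates 1 and 2, at 1295 and 1311 marker FPKM, are highest in all 3 genes, and KO WD replicate 3 (280.4) lies among or near the KO chow libraries.

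Of the other kinases, Pank3 changed in liver. On chow the WT livers held 18.2, 18.6 and 22.4 FPKM and the KO livers 22.5, 24.1 and 25.6. On WD it stood at 10.1, 10.8 and 9.82 FPKM in the livers labelled WT, and at 13.3, 14.3 and 14.6 in those labelled KO. No group overlapped another. Pank3 fell on WD in WT livers (-0.88 ± 0.09, limma adjusted p = 0.000493) and in KO livers (-0.73 ± 0.09, adjusted p = 0.00736). Across all genes 19.2% were called in the first comparison and 0.421% in the second. Of the 6 tested members Pank3 was the only one called in either. Values on WD lay below those on chow without overlap for 4 of the 6 in WT (Pank2, Pank3, Pank4 and Ppcdc) and 2 in KO (Pank2 and Pank3), where 19.2% and 12.5% of all genes did. The count in WT rests on the deposited scaling, since Pank2, Pank4 and Ppcdc had values above 0 on the plain total of reads (0.085, 0.016 and 0.091). The difference between the diet effects did not pass the test (0.15 ± 0.13, adjusted p = 0.601), in which 0.549% of genes and no member were called. The call in KO livers ended without the libraries with RNA of another tissue (-0.79, adjusted p = 0.0674), when 1 gene in all was called.

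Pank3 was also higher in KO than in WT livers on WD (0.43 ± 0.09, limma adjusted p = 0.011), in a comparison where 21.0% of genes were called. On the plain total of reads this call was lost (0.12, adjusted p = 0.354), while the fall on WD was called in WT (-0.56, adjusted p = 0.00209) and in KO (-0.66, adjusted p = 0.0122). On chow the KO livers lay just above the WT livers (0.28 ± 0.09, limma adjusted p = 0.863), the only 1 of the 6 to do so without overlap, where 4.59% of all genes did. In that comparison 0.00% of genes were called by limma, and 675 of 14019 had an unadjusted p under 0.05. The split of called genes on WD also moved with the scaling, from 1490 higher of 2943 to 337 of 3306 for KO against WT, and from 1363 higher of 2693 to 3561 of 3905 for WD against chow in WT.

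In iWAT, where Pank3 is the main kinase, it stood on chow at 76.7, 105 and 82.3 FPKM in WT and 114, 148 and 86.6 in KO. On WD it stood at 61.7, 67.9 and 55.4 FPKM in WT and 63.7, 79.4 and 57.7 in KO. WD libraries lay below chow libraries of the same genotype without overlap, as did 3 of the 6 tested members in WT (Pank2, Pank3 and Coasy) and 2 in KO (Pank3 and Ppcdc), against 11.8% and 6.45% of all genes. The differences, -0.50 ± 0.21 in WT (limma adjusted p = 0.207) and -0.77 ± 0.21 in KO (adjusted p = 0.354), did not pass the test. In these comparisons 2.12% and 0.00% of genes were called, none of them a member, and 1390 of 14685 genes had an unadjusted p under 0.05 in KO. DESeq2 on recovered reads called Pank3 in KO (-0.80, adjusted p = 0.0228). KO and WT overlapped on each diet (0.38 ± 0.21 on chow and 0.11 ± 0.21 on WD, limma adjusted p = 0.930 and 0.835), and the value on WD was -0.070 with quantile normalization.

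Pank2, the kinase with a mitochondrial form, and Pank4 were not called in any comparison. Group means of Pank2 ran from 5.50 to 6.85 FPKM in liver and from 6.51 to 7.56 FPKM in iWAT. Its log2 fold changes within tissues lay between -0.22 and 0.14. Pank4 had means of 4.62 to 5.85 FPKM in liver and 5.26 to 6.52 FPKM in iWAT, with log2 fold changes of -0.27 to 0.26. In liver, WD libraries of Pank2 lay below chow libraries without overlap in both genotypes (-0.21 ± 0.08 in WT and -0.22 ± 0.08 in KO, limma adjusted p = 0.106 and 0.254), but the WT value was 0.085 on the plain total of reads. Pank4 was higher in every KO WD than in every WT WD library of both tissues, by a narrow margin (0.23 ± 0.09 in liver and 0.26 ± 0.11 in iWAT, adjusted p = 0.0953 and 0.260), and the liver value was -0.037 on the plain total.

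**Figure D4:**
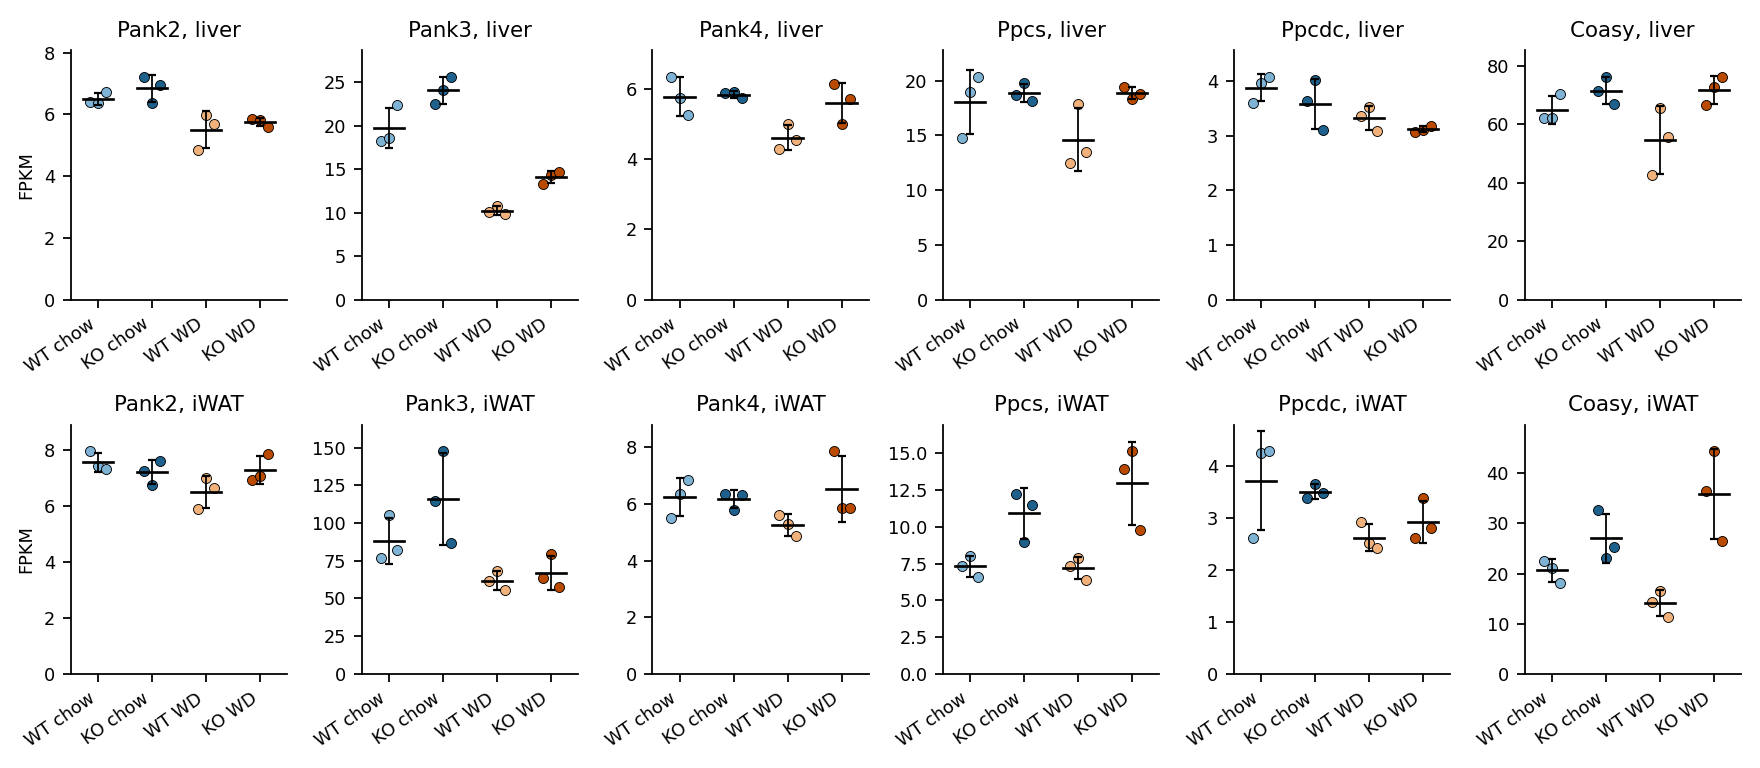
Level (FPKM, linear axes from 0, a scale for each panel) of Pank2, Pank3, Pank4, Ppcs, Ppcdc and Coasy in liver (top) and iWAT (bottom), with 3 libraries per group as points, means as lines and SD as bars. In liver the 4 groups of Pank3 do not overlap, and in iWAT Ppcs and Coasy are higher in every KO WD library than in every WT WD library.

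Downstream of the kinases, Ppcs and Coasy rose in KO iWAT on WD. On chow Coasy stood at 22.5, 21.2 and 18.2 FPKM in WT and 32.6, 23.2 and 25.3 in KO. On WD it stood at 14.3, 16.5 and 11.4 FPKM in WT and 36.5, 44.4 and 26.6 in KO. Every KO library lay above every WT library. Without overlap, KO lay above WT for 3 of the 6 tested members on WD (Pank4, Ppcs and Coasy) and 2 on chow (Ppcs and Coasy), where 12.7% and 5.86% of all genes did. On WD the log2 fold change was 1.27 ± 0.20 (limma adjusted p = 0.0188), in a comparison where 4.25% of genes and 2 of the 6 tested members were called, 470 of the 624 genes higher (369 of 908 on the plain total of reads). Without WT WD replicate 3, KO WD replicate 1 or KO WD replicate 2 the number of called genes was 20, 17 and 16. On chow it was 0.36 ± 0.20 (adjusted p = 0.930), and limma called 0.00% of genes there, with 830 of 14685 at an unadjusted p under 0.05. WD against chow was -0.53 ± 0.20 in WT, without overlap, and 0.38 ± 0.20 in KO, with overlap (adjusted p = 0.177 and 0.587). The diet effects differed by 0.91 ± 0.28, which did not pass the test (adjusted p = 0.643) in a comparison with 0.00% of genes called and 1011 at an unadjusted p under 0.05.

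On chow Ppcs stood at 7.32, 8.04 and 6.61 FPKM in WT and 12.3, 8.98 and 11.5 in KO iWAT. On WD it stood at 7.33, 7.88 and 6.40 FPKM in WT and 13.9, 15.1 and 9.78 in KO. Again every KO library lay above every WT library. The log2 fold change was 0.75 ± 0.16 on WD (limma adjusted p = 0.0335) and 0.51 ± 0.16 on chow (adjusted p = 0.779). WD against chow in WT was -0.02 ± 0.16 for Ppcs (adjusted p = 0.952).

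The calls of Coasy and Ppcs on WD in iWAT rested on few libraries. Coasy was not called without WT WD replicate 3 (1.14, limma adjusted p = 0.0854), KO WD replicate 1 (1.24, adjusted p = 0.0865) or KO WD replicate 2 (1.11, adjusted p = 0.0777). Ppcs was lost with each of those (0.68, 0.69 and 0.63, adjusted p = 0.138, 0.134 and 0.128). It was also lost without WT chow replicate 1, WT WD replicate 1 or WT WD replicate 2 (0.75, 0.76 and 0.81, adjusted p = 0.0529, 0.0678 and 0.0688). Without both iWAT libraries with muscle RNA the values were 1.26 for Coasy and 0.70 for Ppcs (adjusted p = 0.145 and 0.189), and 4 genes in all were called.

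In liver on chow, Coasy stood at 62.1, 62.2 and 70.3 FPKM in WT and 71.3, 76.1 and 66.8 in KO. On WD, Coasy stood at 42.5, 65.4 and 55.6 FPKM in the livers labelled WT and 66.6, 72.6 and 76.0 in those labelled KO. The spread of Coasy was widest among the WD livers labelled WT. Ppcs stood at 14.7, 19.0 and 20.4 FPKM in WT and 18.7, 19.8 and 18.1 in KO on chow, and at 12.5, 17.9 and 13.5 in WT and 19.4, 18.3 and 18.8 in KO on WD. On WD, the livers labelled KO lay above those labelled WT for Pank3, Pank4, Ppcs and Coasy, 4 of the 6 tested members, where 25.4% of all genes did. Coasy (0.41 ± 0.14, limma adjusted p = 0.0654) and Ppcs (0.36 ± 0.14, adjusted p = 0.0929) did not pass the test there. Without WT WD replicate 2, which carried acinar RNA and was the highest of its group in both genes, both were called (0.55 and 0.50, adjusted p = 0.018 and 0.0211). On the plain total of reads they stood at 0.088 and 0.053. WD against chow in WT was -0.27 ± 0.14 for Coasy and -0.29 ± 0.14 for Ppcs (adjusted p = 0.218 and 0.176), but 0.072 and 0.035 on the plain total. Without WT WD replicate 2, Ppcs was called in that comparison (-0.43, adjusted p = 0.0419).

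Ppcdc had the lowest levels of the 7 genes per length in liver and, except for some Pank1 libraries, in iWAT, with group means of 3.12 to 3.88 and 2.63 to 3.72 FPKM. Ppcdc was not called in any comparison on the deposited scaling. Its log2 fold changes of KO over WT lay between -0.09 and 0.12. That in liver on WD was -0.07, but -0.31 and called lower on the plain total of reads (limma adjusted p = 0.0308). WD against chow in WT was -0.17 ± 0.09 in liver and -0.36 ± 0.14 in iWAT (limma adjusted p = 0.199 and 0.192), the first 0.091 on the plain total of reads and the second called without WT chow replicate 1 (-0.54, adjusted p = 0.049).

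**Figure D5:**
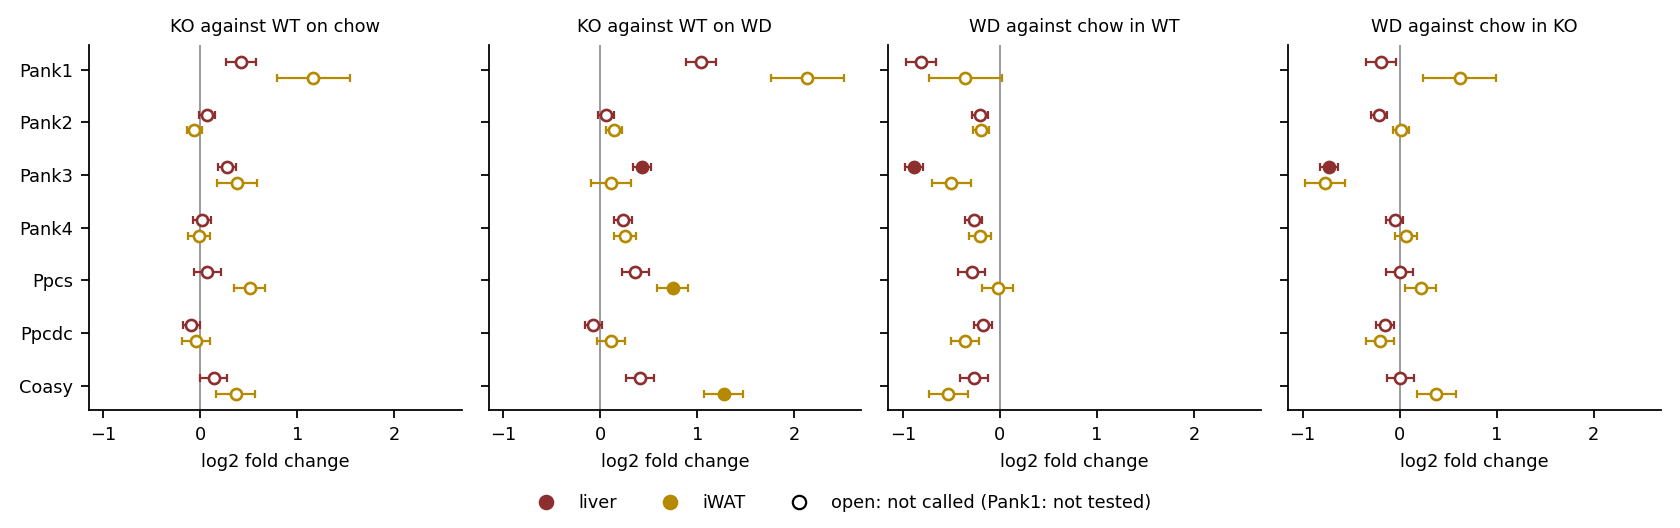
Log2 fold change of FPKM + 1 with its SE (bars) for the 7 genes in 4 comparisons, liver and iWAT in different colours, with filled points for calls by limma and open points for values that were not called (Pank1 was not tested). Pank3 is filled in liver in 3 panels, and Ppcs and Coasy in iWAT for KO against WT on WD.

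The effect of the KO label on WD differed between the tissues for Coasy. The value in liver was 0.86 ± 0.25 lower on the log2 scale than that in iWAT (-0.86, limma adjusted p = 0.0434), in a joint fit of 24 libraries in which 7.43% of genes and 1 of the 6 tested members were called. The call was lost in 14 of the 24 fits that left out 1 library, with adjusted p up to 0.121. These libraries were replicates 1, 2 and 3 of KO chow liver, 2 and 3 of WT WD liver, 1, 2 and 3 of KO WD liver, 1 and 2 of WT chow iWAT, 1 and 3 of WT WD iWAT, and 1 and 2 of KO WD iWAT. The value for Ppcs was -0.39 ± 0.22 (adjusted p = 0.291) and that for Pank3 0.32 ± 0.23 (adjusted p = 0.419). Called by limma in the same joint fit were 8.44% of genes for WD against chow in WT, 0.328% for that in KO and 0.00% for KO against WT on chow (511 of 15254 at an unadjusted p under 0.05), with no member among them. For Pank1 the liver value of KO against WT on WD minus that of iWAT was -1.10 ± 0.42, a difference between a gene far above 1 FPKM in liver and one near 1 FPKM in WT iWAT.

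Genes around the pathway were described by lists chosen with earlier results of these data known. In these livers 21.0% of all genes were called, and hepatocyte markers were higher and macrophage and stellate cell markers lower, as given above, whose part in the lists was not tested. In KO against WT livers on WD, 2 of 3 mitochondrial and related CoA carriers were higher and none lower, with a list median of 0.56 against 0.07 over all genes tested: Slc25a42 (0.93 ± 0.19, limma adjusted p = 0.0092) and Slc25a16 (0.56 ± 0.12, adjusted p = 0.0107). Slc25a42 imports CoA into mitochondria. Of the CoA diphosphatases, which degrade CoA in peroxisomes or mitochondria, 2 of 3 were tested and Nudt7 was higher (1.95 ± 0.31, adjusted p = 0.00362). Nudt7 had means of 73.3 and 116 FPKM in WT and KO livers on chow, and of 35.3 and 135 FPKM on WD. Among 15 tested acyl-CoA synthetases, which load fatty acids onto CoA, 5 were higher and none lower, with a median of 0.39, and these were Acsl1, Acsm1, Acsm5, Slc27a2 and Slc27a5. Acsl1 had the greatest log2 fold change of the 5 (1.52 ± 0.25, adjusted p = 0.00382). Among 11 tested acyl-CoA thioesterases, which release CoA again, Acot1, Acot12 and Them4 were higher and Acot9 was lower. On the plain total of reads 1 of the 2 carrier calls, the Nudt7 call, 4 of the 5 synthetase calls and 3 of the 4 thioesterase calls held. The calls of Acsm5, Acot1 and Acot12 were lost in 3, 2 and 4 of the 12 fits that left out 1 liver.

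Pantothenate supply was a list of 3 tested genes. None of the 3 (Slc5a6, a vitamin transporter, and the pantetheinases Vnn1 and Vnn3) was called in KO against WT on WD in liver, with a median of -0.17. Vnn1 rose on WD in WT livers (1.55 ± 0.43, limma adjusted p = 0.0306), from 14.2 ± 6.77 to 43.1 ± 15.7 FPKM (SD, n = 3). In the same comparison Slc25a16 (-0.61 ± 0.12) and Nudt7 (-1.10 ± 0.31) fell (limma adjusted p = 0.00808 and 0.0329), as did 6 of 15 acyl-CoA synthetases. Over all genes tested 19.2% were called there. The calls of Vnn1 and Nudt7 were each lost in 4 of the 12 fits that left out 1 liver, and those of Slc25a16 and Nudt7 on the plain total of reads. Of the synthetase calls, those of Acsm5 and Slc27a2 were each lost in 9 of the 12 fits. These comparisons share the WT WD livers with KO against WT on WD. Of 5 tested genes that transfer or accept the phosphopantetheine group of CoA, Aldh1l1 and Ndufab1 fell on WD in WT livers (-1.04 ± 0.15 and -0.34 ± 0.09, limma adjusted p = 0.00198 and 0.0219). The Ndufab1 call was lost in 3 of the 12 fits that left out 1 liver and in 2 of 10 other alternatives. In KO against WT livers on WD, where 21.0% of all genes were called, 1 of the same 5 genes was called, Aldh1l1, which was higher. Its means there were 169 FPKM in WT and 281 in KO. That call was lost in 0 of the 12 fits that left out 1 liver and in 2 of 10 other alternatives.

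Among 16 tested genes of the PPARA list in liver, 1 was called higher (Creb3l3) and 1 lower (Fgf21) in KO against WT on WD, with a median of 0.58. Over all genes tested 21.0% were called there. The Fgf21 call was lost in 4 of the 12 fits that left out 1 liver and in 2 of 10 other alternatives. That of Creb3l3 was lost in none.

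For KO against WT on WD in iWAT, 4.25% of all genes tested were called. The calls of the lists below in that comparison were all lost without WT WD replicate 3, KO WD replicate 1 or KO WD replicate 2. With all libraries, 1 of 3 CoA carriers was higher (Slc25a17, 0.74 ± 0.13, limma adjusted p = 0.0226), as was Nudt7 (0.94 ± 0.15, adjusted p = 0.0201). Of 14 tested acyl-CoA synthetases 5 were higher and none lower (Acsf2, Acss2, Acsf3, Acsl1 and Slc27a2), with a median of 0.68 against -0.02 over all genes. Of 5 tested genes of phosphopantetheine transfer and its acceptors, Fasn (2.07 ± 0.37, adjusted p = 0.0226) and the acyl carrier protein Ndufab1 (0.85 ± 0.16, adjusted p = 0.0232) were higher. Of 13 tested genes of the PPARA list 5 were higher, among them Hadha (1.70 ± 0.28, adjusted p = 0.0208) and Ppara (1.94 ± 0.39, adjusted p = 0.0285). Thioesterases Acot8 and Acot11 were higher of 9 tested. The calls of Acot8, Slc27a2 and Acsl1 were lost in 11, 11 and 10 of the 12 fits that left out 1 library. That of Acot8 was also lost in 6 of 9 other alternatives. Of the supply genes none was called in KO against WT. Slc5a6 fell on WD in WT iWAT (-1.59 ± 0.32, limma adjusted p = 0.036), from 15.6 ± 4.45 to 4.51 ± 1.40 FPKM (SD, n = 3). Over all genes tested 2.12% were called for WD against chow in WT iWAT. The Slc5a6 call was lost in 6 of the 12 fits that left out 1 library. The brown adipocyte markers given above moved in the same KO libraries, and their part in these values was not tested.

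Genes most like Pank1 were ranked by Pearson's r of log2(FPKM + 1) over the 12 libraries of a tissue, among genes whose mean was at least 3 FPKM. These libraries share group, depth and scaling, and r is a description. In liver the first 5 of 7832 genes were Apoa2 (0.978), Mrps7 (0.977), Marc1 (0.973), Cyp2d10 (0.971) and Mtch2 (0.969). Apoa2, an apolipoprotein, had means of 8992 and 10867 FPKM in WT and KO on chow, and of 5672 and 9511 FPKM on WD, the same order of groups as Pank1. In iWAT the first 5 of 8103 genes were Chchd10 (0.982), Slc25a11 (0.978), Uqcrfs1 (0.978), Ndufaf4 (0.977) and Ndufb5 (0.976), whose products are mitochondrial. Chchd10 had means of 16.0 and 46.6 FPKM in WT and KO on chow, and of 15.3 and 87.8 FPKM on WD. Among the members, Ppcs ranked 44 and Coasy 144 in iWAT (r = 0.950 and 0.918), and Coasy 305 in liver (r = 0.895). Pank3 had r = 0.806 in liver and 0.275 in iWAT.

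The authors' deposited tables of KO against WT list only genes with an unadjusted p under 0.05, so a listed gene need not pass after adjustment. In the authors' deposited table for WD in iWAT, 3 of the 7 members are listed, with log2 fold changes of 3.08 for Pank1, 1.38 for Coasy and 0.88 for Ppcs. In the authors' deposited table for WD in liver the 3 members listed are Pank1 (1.02), Pank3 (0.43) and Coasy (0.36). In the authors' deposited tables for chow, Pank1 is listed in liver (0.42), and Pank1, Ppcs and Coasy in iWAT (1.57, 0.59 and 0.41). Leaving Pank1 aside, the authors' adjusted p was above 0.05 for Coasy in liver on WD (0.131). The same held in iWAT on chow for Ppcs (0.323) and Coasy. Pank2, Pank4 and Ppcdc are in none of the authors' deposited tables.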

How the data were processed

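The values analysed were FPKM from the authors' deposited table, which covers 54532 genes and 24 libraries, with the gene lengths deposited beside them. Per the submitters' processing notes, HISAT2 2.0.5 and DESeq2 1.20.0 were used with mm10, in roles not stated. The sources used here give neither read counter nor strandedness. Per the labels' protocols, poly-T beads captured the RNA. The authors' deposited tables of KO against WT also hold read counts, log2 fold changes and p-values, per the file headers. A further 56 columns per library or group in those tables were not used.

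FPKM times gene length and 1 constant per library gave whole reads within 0.05 for 100% of 540911 values, and 64434 of 64434 deposited counts equalled them.

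Genes averaging 0.5 FPKM or more in a tissue (14019 in liver, 14685 in iWAT) were fitted with limma 3.58.1 (variance trend, robust prior) on log2(FPKM + 1) in R 4.3.3, with the 4 groups of a tissue in 1 model. Liver was set against iWAT in a joint fit of 15254 genes. The test was also run on simulated counts with the same dispersion for every gene and no outlying libraries. That check does not cover libraries as far apart as those of KO WD iWAT. edgeR 4.0.16 and DESeq2 1.42.0 on recovered reads, other scalings, pseudocounts and filters, a replicate block and left-out libraries were alternatives. Python 3.11.15 was used for tables and figures.

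The members, gene lists and marker lists were chosen with earlier results of these data known. By rule the 7 members and Mrs2 are named, with up to 6 called genes per list and comparison by smallest p, and the 5 genes most like Pank1 in each tissue. The results of 1 gene list and of 1 further gene are not reported here. No label pairs the samples. The deviations of libraries with equal replicate numbers all correlated above 0.1 (0.184, 0.127 and 0.407) in 1 comparison, KO against WT on chow in iWAT, in which number 2 matched another number more closely (0.258).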

Additional observations from a re-analysis of the deposited data

Results flagged for a closer look

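Of the members, 1 passed the test of a difference between the tissues, and of the members and the listed genes described above, 1 passed that of a difference between the diet effects. Differences between tissues of other genes are not reported here. Coasy on WD had a log2 fold change of KO over WT that was lower in liver than in iWAT by a difference of -0.86 (limma adjusted p = 0.0434 in the joint fit of both tissues). Acot9, an acyl-CoA thioesterase, had a different effect of diet in KO than in WT livers (-1.31 ± 0.21, limma adjusted p = 0.0367). Its means were 2.34 FPKM in WT and 2.03 in KO on chow, and 7.61 in WT and 2.18 in KO on WD (n = 3 each). This call was lost in 9 of the 12 fits that left out 1 liver and in 5 of 9 other alternatives, among them edgeR (adjusted p = 0.0631), the replicate block (0.101) and the fit without the libraries with RNA of another tissue (0.107).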

How the results depend on the processing

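Single-gene values were recomputed 2473 times under alternatives, and 2312 of these kept their sign and their side of the threshold or, for Pank1, moved by less than the SE. With a replicate block the number of called members on WD was 1 in liver and 2 in iWAT for KO against WT, and 1 for the difference between tissues. The replicate block changed no member's call in any comparison.

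The sign changed in 103 of the values, none of them called in either fit. In 93 the main value was smaller than its SE, and the other 10 all came with the plain total of reads. Of values printed above, the plain total turned Pank4 in KO against WT on WD in liver (-0.037), Pank2, Pank4, Ppcs, Ppcdc and Coasy for WD against chow in WT livers (0.085, 0.016, 0.035, 0.091 and 0.072), Pank3 in the difference of diet effects in liver (-0.10) and Pank3 in KO against WT on WD in iWAT (-0.014). Quantile normalization turned the last (-0.070) and Ppcdc in KO against WT on WD in liver (0.00012). With 1 library left out, Pank3 in KO against WT on WD in iWAT ran from -0.019 to 0.21 and Ppcs for WD against chow in WT iWAT from -0.085 to 0.051. The 90 sign changes of values not printed above ended between -0.21 and 0.33. With the plain total Ppcdc was called lower in KO livers on WD (-0.31, limma adjusted p = 0.0308).

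Of the counts of called members, KO against WT on WD in iWAT fell from 2 to 1 with no filter and with the plain total, where Ppcs was lost (limma adjusted p = 0.0756 and 0.0569). It was 0 without the libraries with RNA of another tissue, and 0 to 2 with 1 library left out. WD against chow in KO livers fell from 1 to 0 without the libraries with RNA of another tissue. With DESeq2, 1 member (Pank3) was called for WD against chow in KO iWAT. The count for the difference between tissues on WD was 0 with no filter (Coasy, adjusted p = 0.0834) and without the libraries with RNA of another tissue (adjusted p = 0.253), and 0 to 1 with 1 library left out. With 1 library left out, counts ran from 1 to 3 for KO against WT on WD in liver, from 1 to 2 for WD against chow in WT livers, and from 0 to 1 for WD against chow in WT iWAT. The cause of these changes was not tested. Some alternatives by themselves bring a smaller number of libraries or a larger number of genes tested, and the part of this was not tested either. Every member other than Pank1 had at least 217 reads in every library.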
